A study of Mus musculus with 20 samples.

Results

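Purinergic receptors are the cell surface receptors for ATP and related nucleotides. The P2X receptors are cation channels that open when extracellular ATP binds to a trimer of subunits, and the P2Y receptors are G protein-coupled receptors for ATP, ADP, UTP or nucleotide sugars. In dorsal root ganglia (DRG), P2X3 alone or together with P2X2 carries the response of nociceptors to ATP released from stretched or damaged tissue, including pelvic organs such as the bladder, while other family members are known from satellite glia and macrophages. The 10 genes examined were the 6 P2X genes P2rx2, P2rx3, P2rx4, P2rx5, P2rx6 and P2rx7, and the 4 P2Y genes P2ry1, P2ry2, P2ry12 and P2ry14. They were chosen by name as the P2X receptors and the P2Y receptors of sensory neurons and satellite glia, and all 10 were found among the 37620 genes listed in the expression table.

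RNA was sequenced from whole DRG of C57Bl6 mouse embryos with no transgene or treatment, taken at E18.5, shortly before birth. Each of 10 embryos gave 1 library from the ganglia L4-5 (lumbar) and 1 from L6-S1 (sacral in the study's terms, where the sensory neurons of the pelvic organs lie), so that 5 male and 5 female embryos made 20 libraries in 4 groups of 5. Male embryos are named M1, M3, M5, M7 and M8, and female embryos F3, F7, F8, F9 and F10. The ganglia were not sorted, so the RNA came from neurons, glia, macrophages, vessels and connective tissue together. Skeletal muscle genes were read as well, with their values given below. In such bulk samples fewer cells of a type and less RNA per cell cannot be told apart.

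The labelled tissue was checked first. All 12 pan-neuronal marker genes, among them Tubb3, and all 13 genes of the satellite glia and Schwann cell list, among them Sox10, passed the filter on low values, and the smallest number of Tubb3 reads in a library was 1854. Depth, recovered from the steps of the deposited values, was 19403023 to 39257771 reads per library, and 18.1 to 61.4% of these came from the 2 mitochondrial ribosomal RNA (rRNA) genes. That share was high in both libraries of male embryo M5 (61.4% lumbar, 49.9% sacral) and of female embryo F7 (49.3% and 45.2%), which recur in the values given below.

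To see which receptors were present, levels were compared between genes on the log2 RPKM scale. On it reads are divided by a scaling factor of the library and by kilobases of exon, so that gene length is accounted for. P2rx3 had by far the highest level, with a mean of 5.84 ± 0.56 log2 RPKM (SD over 20 libraries), and 97.6% of the 14529 genes tested had a lower mean. It accounted for 61.9 to 84.9% (median 79.7%) of the summed RPKM of the 10 receptors in a library. P2ry1, an ADP receptor, came next at 2.42 ± 0.38 and lay 3.42 ± 0.45 log2 units below P2rx3, lower in 20 of 20 libraries. P2ry2, a receptor for ATP and UTP, followed at 1.23 ± 0.70, below P2ry1 in 19 of 20 libraries.

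**Figure D1:**
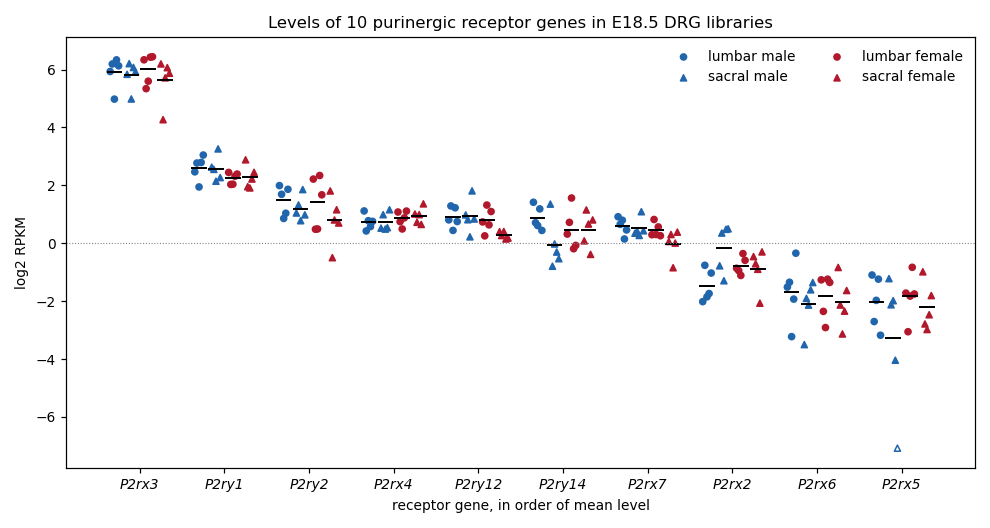
Level of each receptor gene (log2 RPKM, vertical axis) in the 20 libraries, with genes in order of their mean. Circles are lumbar and triangles sacral libraries, blue male and red female, black lines are group means of 5, and the open triangle is the 1 library with 0 reads of P2rx5, drawn at the value of 0.5 reads. P2rx3 stands above the other 9 genes in every library, and P2rx2, P2rx6 and P2rx5 have means below 0, which is 1 RPKM.

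Below these 3 genes the order was not resolved. P2rx4 (0.82 ± 0.27), P2ry12 (0.73 ± 0.45), P2ry14 (0.44 ± 0.70) and P2rx7 (0.38 ± 0.41) were separated from their neighbours in the order, and P2ry2 from P2rx4, by gaps smaller than the SD of the gap over libraries. P2rx4 and P2rx7 encode ATP-gated channels best known from immune cells and glia, P2ry12 an ADP receptor and P2ry14 a receptor for UDP-sugars. A clear step of 1.21 ± 0.81 then separated P2rx7 from P2rx2 (-0.82 ± 0.75), and a further step of 1.08 ± 0.93 separated P2rx2 from P2rx6 (-1.90 ± 0.83). P2rx5 (-2.34 ± 1.40) did not differ from P2rx6 beyond the spread of their difference.

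Genes were tested between groups if their mean log2 RPKM reached 0 (1 RPKM) in at least 1 of the 4 groups. Of the 10 receptors 7 did. P2rx2, P2rx5 and P2rx6 did not, with 9 to 83, 0 to 47 and 7 to 107 reads per library. The study's filter, on depth-scaled reads, kept P2rx2 and P2rx6 as well, and their results under it are given below. Among the 7, the mean log2 RPKM was below 0 for P2ry14 in sacral male and P2rx7 in sacral female DRG. The other 5 reached 0 in each group.

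The study asked which genes differ between sacral DRG, which hold visceral neurons, and the adjacent lumbar DRG. Of the 7 receptors tested, 0 differed between spinal levels at an adjusted p of at most 0.05 (limma, embryo as a block, Benjamini-Hochberg adjustment over all genes), while 978 of 14529 genes did, 6.73% of those tested. At an unadjusted p under 0.05 there were 2 receptors, P2ry2 and P2ry14, where 24.1% of all genes were. The median difference, sacral minus lumbar, was -0.26 on the log2 scale over the 7 receptors and -0.05 over all tested genes, and 5 of 7 receptors and 58.0% of genes had a negative difference. P2rx7, P2ry2 and P2ry14 were each lower in sacral DRG in 8 of 10 embryos, as 17.5% of all genes were in 8 or more.

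**Figure D2:**
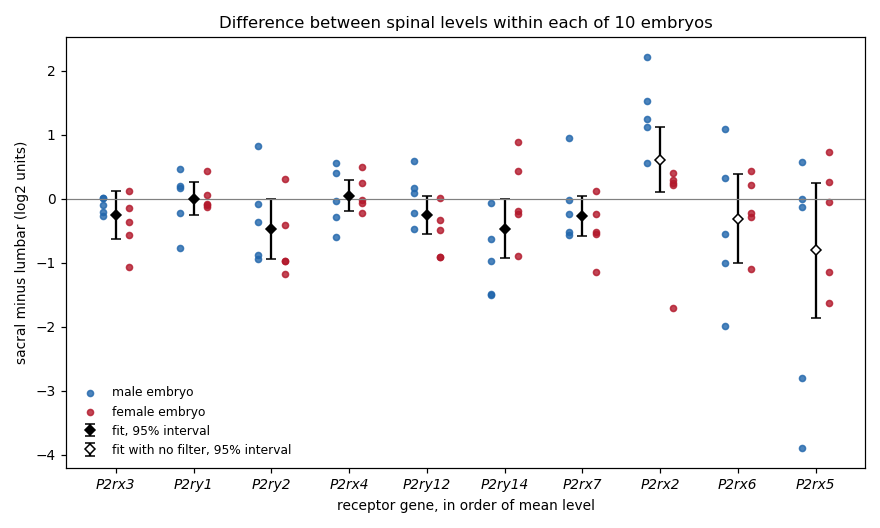
Sacral minus lumbar difference in log2 RPKM for each receptor gene. Points are the 10 embryos (blue male, red female), and diamonds are the fitted difference with its 95% interval, filled for the 7 genes tested and open for the 3 genes below the filter, fitted with no filter. The intervals of P2rx4 and P2ry1 are narrow around 0, those of P2ry2 and P2ry14 end close to 0, and P2rx2 has the largest estimate above 0, at 0.61.

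P2rx3 (ENSMUSG00000027071, mm9 chromosome 2, 84838740 to 84877619, minus strand) encodes the P2X3 subunit of non-peptidergic nociceptors. In male lumbar DRG it measured 5.93, 6.19, 4.98, 6.33 and 6.13 log2 RPKM in M1, M3, M5, M7 and M8, and in male sacral DRG 5.83, 6.20, 4.98, 6.07 and 5.92. In female lumbar DRG it measured 6.34, 5.34, 5.60, 6.43 and 6.44 in F3, F7, F8, F9 and F10, and in female sacral DRG 6.19, 4.27, 5.71, 6.06 and 5.87. Embryos differed more than levels: both libraries of M5 were the lowest male values, both of F7 the lowest female values, and the groups overlapped throughout.

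The difference of P2rx3 between levels was -0.26 ± 0.18 (SE; 95% interval -0.63 to 0.11, 0.65- to 1.08-fold), with a limma adjusted p of 0.382, and the sacral value was the lower in 7 of 10 embryos. The limma fit used 1 correlation for all genes, 0.342, between libraries of an embryo, whereas P2rx3 varied less within embryos than between them. With embryo as a fixed term, where 792 of 14529 genes passed, the SE was 0.10 and the limma adjusted p 0.139. An exact sign-flip permutation test over the 10 within-embryo differences gave an unadjusted two-sided p of 0.0234. It was 1 of 10 such tests made here on the 10 receptors, and for those past the filter it was chosen after the values were seen. The share of all genes with such a p in this test was not computed, and 24.1% had an unadjusted p under 0.05 in the main limma fit. Without F7, which had the largest difference at -1.07, the mean was -0.17 (exact permutation p = 0.0469), over 1.5 times smaller.

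P2rx3 was set beside the markers of the neurons it is known from and of other neurons. All 7 non-peptidergic nociceptor markers were tested, 7 of 7 had a negative difference with a median of -0.21, and 0 passed the threshold. A negative difference was found in 58.0% of all genes. Among 8 large myelinated neuron markers 6 were negative, median -0.51, and 4 passed as lower. Among 7 peptidergic nociceptor markers 4 were negative, median -0.17, and 1 passed as lower and 1 as higher. Of the 12 pan-neuronal markers 12 had a negative difference, median -0.31, and 1 passed, Snap25, a synaptic vesicle fusion protein, at -0.60 ± 0.14 (limma adjusted p = 0.0162). The summed RPKM of the pan-neuronal list ran from 859 to 1533 in lumbar DRG of males and from 765 to 1397 in their sacral DRG, against 940 to 1780 and 429 to 1547 in females, and its part in the value of P2rx3 was not tested.

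P2rx2 (ENSMUSG00000029503, chromosome 5, 110768831 to 110772168, minus strand) encodes the subunit that joins P2X3 in a slowly desensitizing channel. In lumbar male DRG it measured -2.02, -0.76, -1.85, -1.74 and -1.03 log2 RPKM in M1, M3, M5, M7 and M8, against -0.78, 0.35, -1.30, 0.48 and 0.50 in sacral DRG of the same embryos. The 5 male embryos thus each had the higher value at the sacral level, on 108 reads in all 5 lumbar and 290 in all 5 sacral libraries. In females the lumbar values were -0.86, -0.95, -1.11, -0.36 and -0.59 in F3, F7, F8, F9 and F10, and the sacral values -0.46, -0.71, -0.90, -2.07 and -0.30. F9 was the only 1 of the 10 embryos with the lower value in sacral DRG, on 12 reads against 54 in lumbar DRG. In F9 the mitochondrial rRNA share was 22.3% in the lumbar and 40.1% in the sacral library. That share also rose in M8 (20.8 to 34.9%) and F10 (30.8 to 38.3%), which had the higher P2rx2 value in sacral DRG. The part of the share in the P2rx2 values was not tested.

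The difference of P2rx2 was 0.61 ± 1.05 (SD, n = 10), higher in sacral DRG in 9 of 10 embryos. This gave p = 0.0957 in an exact two-sided sign-flip permutation test, unadjusted and 1 of 3 made on genes below the filter, and 0.230 as the limma adjusted p in a fit with no filter, where the estimate was 0.61 ± 0.24 (SE, 95% interval 0.10 to 1.12) and 1.75% of 29049 genes passed. With the study's filter on depth-scaled reads, which kept P2rx2, the estimate was 0.61 ± 0.23 (SE, 95% interval 0.13 to 1.09). The limma adjusted p was then 0.120, and 1014 of 15729 genes passed. A higher sacral value in 9 or more embryos was found for 3.18% of the genes with a value. With 1 embryo left out, the mean ran from 0.43 without M7 (exact permutation p = 0.191) to 0.87 without F9. Since F9 had the only negative difference, the 9 embryos left without it give the smallest exact permutation p they can, 0.0039, whatever the size of their values.

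The level difference of P2rx2 averaged 1.33 ± 0.61 over the 5 males and -0.11 ± 0.90 over the 5 females (SD), and the male values (0.56 to 2.22) and female values (-1.71 to 0.40) did not overlap. Of the 10 receptors P2rx2 was the only 1 without overlap, a pattern seen after the values were known and found in 0.492% of the 29049 genes with a value. In the fit with no filter the interaction of level and sex was -1.44 ± 0.49 (SE), with an unadjusted p of 0.0081 and a limma adjusted p of 0.988. The female mean rests on F9, without which it was 0.29 ± 0.08 (SD, n = 4) and still below each male value. The interaction without F9, a setting chosen after the values were seen, was -1.04 ± 0.45 (SE), with an unadjusted p of 0.0316 and a limma adjusted p of 0.999. On 9 to 83 reads per library, the interaction of P2rx2 did not pass the adjustment.

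**Figure D3:**
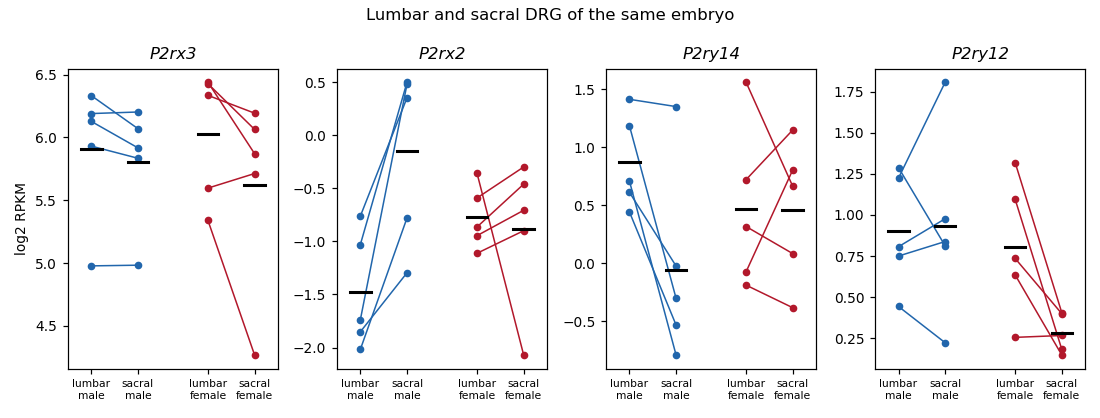
Log2 RPKM of P2rx3, P2rx2, P2ry14 and P2ry12 (vertical axes, each with its own range) in lumbar and sacral DRG, with lines joining the libraries of 1 embryo and black bars for group means of 5. P2rx2 is higher in sacral DRG in 5 of 5 males and 4 of 5 females, P2ry14 is lower in 5 of 5 males and 3 of 5 females, and for P2ry12 the 5 sacral female values lie between 0.15 and 0.40.

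P2rx5 (ENSMUSG00000005950, chromosome 11, 72973923 to 72986187) and P2rx6 (ENSMUSG00000022758, chromosome 16, 17561978 to 17577893), which encode subunits that form weak channels on their own, were the least abundant. P2rx5 had 0 reads in the sacral library of M8, which allows up to 3 reads, and 4 in that of M7, so its difference of -0.81 ± 1.54 (SD, n = 10) depends on the 0.5 reads set for the 0. It was lower in sacral DRG in 7 of 10 embryos (exact sign-flip permutation p = 0.139), and without M8 the mean was -0.47. P2rx6 differed by -0.31 ± 0.89 and was lower in 6 of 10 embryos (exact permutation p = 0.305), with a mean of -0.12 without M1 (exact permutation p = 0.605) and -0.47 without M5 (0.113). With the study's filter on depth-scaled reads, which kept P2rx6, its limma adjusted p was 0.581. P2rx6 shares 554 of its 3995 exon bases with Slc7a4 on the opposite strand, and reads from there cannot be assigned, as strand use in the counting is not stated in the sources used here. The corresponding overlap of P2rx3, with Ssrp1, was 51 of 2789 bases.

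P2rx4 (ENSMUSG00000029470, chromosome 5, 123157593 to 123179747) and P2rx7 (ENSMUSG00000029468, chromosome 5, 123093920 to 123141441) are neighbours on the same strand. P2rx4 ranged from 0.42 to 1.36 log2 RPKM over all 20 libraries and had the smallest SD of the 10 genes. Its difference was 0.05 ± 0.12 (SE, limma adjusted p = 0.833), and the 95% interval, 0.87- to 1.22-fold, leaves out changes larger than that. P2rx7 measured 0.92, 0.65, 0.79, 0.15 and 0.46 log2 RPKM in lumbar DRG of M1, M3, M5, M7 and M8, and 0.35, 0.42, 0.27, 1.09 and 0.43 in their sacral DRG. In F3, F7, F8, F9 and F10 it measured 0.29, 0.82, 0.30, 0.56 and 0.26 in lumbar and 0.06, 0.30, -0.85, 0.01 and 0.38 in sacral DRG. M7 had the highest and F8 the lowest value, both in sacral DRG, and the groups overlapped. Its difference was -0.27 ± 0.15 (SE, 95% interval -0.59 to 0.04, limma adjusted p = 0.268), with the lower value in sacral DRG in 8 of 10 embryos.

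P2ry1 (ENSMUSG00000027765, chromosome 3, 60806717 to 60812901) encodes the ADP receptor P2Y1, which couples to phospholipase C. Males had 2.60 ± 0.42 log2 RPKM (SD, n = 5) in lumbar and 2.57 ± 0.43 in sacral DRG, and females 2.24 ± 0.20 and 2.28 ± 0.40. The difference between levels was 0.00 ± 0.13 (SE, limma adjusted p = 0.994), 5 embryos were higher and 5 lower, and the 95% interval was 0.83- to 1.20-fold. Of the 7 receptors P2ry1 thus had the estimate closest to 0, at a level that gave 245 to 1114 reads per library.

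P2ry2 (ENSMUSG00000032860, chromosome 7, 108145086 to 108160505, minus strand) encodes P2Y2, which responds to UTP as well as ATP. Lumbar male DRG measured 1.99, 1.69, 0.86, 1.04 and 1.86 log2 RPKM in M1, M3, M5, M7 and M8, and sacral male DRG 1.05, 1.32, 0.78, 1.85 and 0.98. Lumbar female DRG measured 2.22, 0.48, 0.49, 2.34 and 1.67 in F3, F7, F8, F9 and F10, and sacral female DRG 1.81, -0.50, 0.80, 1.16 and 0.70. Sacral values were the lower in 8 of 10 embryos, with M7 and F8 the exceptions, and the lowest value of the gene was again in sacral DRG of F7. The difference was -0.47 ± 0.22 (SE, 95% interval -0.94 to -0.002), with an unadjusted p of 0.0491 and a limma adjusted p of 0.206. With weights for the quality of each library, a setting under which 20.6% of genes passed, the difference was -0.60 ± 0.18 and the limma adjusted p 0.0242.

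P2ry12 (ENSMUSG00000036353, chromosome 3, 59020193 to 59066753, minus strand) and P2ry14 (ENSMUSG00000036381, chromosome 3, 58918548 to 58934546, minus strand) lie in the same cluster of P2Y genes. Both are enclosed by Med12l on the opposite strand without sharing exon bases with it, and Med12l itself differed by -0.004 ± 0.09. Both receptors lower cyclic AMP through Gi proteins.

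Lumbar male values of P2ry14 were 1.41, 0.71, 0.61, 1.19 and 0.44 log2 RPKM in M1, M3, M5, M7 and M8, and the sacral values were 1.35, -0.79, -0.03, -0.30 and -0.53. Lumbar female values were 0.32, 0.72, 1.56, -0.19 and -0.07 in F3, F7, F8, F9 and F10, and sacral values 0.08, 1.15, 0.66, -0.38 and 0.81. In males 4 of 5 sacral values thus lay below all 5 lumbar values, while in females the levels overlapped. The difference over both sexes was -0.47 ± 0.22 (SE, 95% interval -0.93 to -0.01), lower in sacral DRG in 8 of 10 embryos, with an unadjusted p of 0.0465 and a limma adjusted p of 0.201. Counts were small, at 34 to 220 reads per library.

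P2ry12 in male lumbar DRG was 0.81, 1.29, 0.44, 1.22 and 0.75 log2 RPKM in M1, M3, M5, M7 and M8, and in male sacral DRG 0.98, 0.81, 0.22, 1.81 and 0.84. In female lumbar DRG it was 0.74, 0.25, 1.32, 0.64 and 1.10 in F3, F7, F8, F9 and F10, and in female sacral DRG 0.40, 0.27, 0.40, 0.15 and 0.18. The 5 sacral female libraries were close together and low, overlapping with the other groups only through the sacral library of M5 and the lumbar library of F7. The level difference was -0.25 ± 0.14 (SE, 95% interval -0.55 to 0.05), with a limma adjusted p of 0.290 and a lower sacral value in 6 of 10 embryos. With library weights, under which 20.6% of genes passed, it was -0.36 ± 0.12 (limma adjusted p = 0.0417).

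Marker genes of glia and of macrophages were read in the same libraries. In the satellite glia and Schwann cell list 12 of 13 genes had a negative difference, with a median of -0.34. In that list 5 genes, among them the myelin gene Mbp (-0.58 ± 0.08) and S100b (-0.67 ± 0.11), passed as lower in sacral DRG and Glul, glutamine synthetase, as higher (0.36 ± 0.10). In the macrophage list 8 of 10 tested genes were positive, with a median of 0.18, and Mrc1, a mannose receptor, passed at 0.62 ± 0.15 (limma adjusted p = 0.0215), while Cx3cr1 differed by -0.22 ± 0.19. The summed RPKM of the glial list was 485 to 584 in lumbar and 330 to 453 in sacral DRG of males, and 431 to 536 and 295 to 457 in those of females. In the same order the macrophage list summed to 33.3 to 44.6, 37.7 to 45.7, 36.9 to 60.8 and 47.4 to 82.6 RPKM. The part of either in the values of P2ry2, P2ry12 and P2ry14 was not tested. In the same group order skeletal muscle genes summed to 25.1 to 93.0, 23.7 to 242.8, 25.2 to 489.8 and 29.8 to 98.0 RPKM. All 10 muscle genes tested had a negative difference, with a median of -0.47, and 0 passed. The part of muscle RNA in the receptor values, those of P2rx5 and P2rx6 included, was not tested.

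The study also asked whether the sexes differ within a level. Among the 7 receptors, 0 passed the threshold between females and males in lumbar DRG, where 0.330% of all genes did, and 0 passed in sacral DRG, where 1.01% did. In lumbar DRG 0 of the 7 had an unadjusted p under 0.05, against 8.28% of all genes. In sacral DRG P2ry12 was the only receptor under 0.05 unadjusted, against 15.5% of all genes. Its female minus male difference there was -0.65 ± 0.25 (SE, 95% interval -1.17 to -0.13), with an unadjusted p of 0.0166 and a limma adjusted p of 0.220. P2rx7 followed with -0.53 ± 0.26 (95% interval -1.08 to 0.02, limma adjusted p = 0.337). The remaining sacral differences ranged from -0.40 for P2ry2 to 0.52 for P2ry14, with intervals that included 0.

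For the interaction of level and sex (the female level difference less the male one), 0 of 7 receptors and 0 of 14529 genes (0%) passed in limma, and 3.23% of all genes had an unadjusted p under 0.05. Of the 7, P2ry14 had the largest interaction, at 0.93 ± 0.44 (SE, 95% interval 0.01 to 1.85), with an unadjusted p of 0.0481 and a limma adjusted p of 0.995. Its level difference averaged -0.93 ± 0.61 over the 5 males and -0.004 ± 0.68 over the 5 females (SD). P2ry12 had the opposite sign, at -0.56 ± 0.29, with level differences of 0.03 ± 0.40 in males and -0.53 ± 0.40 in females.

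Levels of 3 receptors moved with the mitochondrial rRNA share of the library. In the limma fit with that share as a covariate, P2rx3 was lower by 0.36 ± 0.07 log2 units for each 10 percentage points (a coefficient of -0.36, adjusted p = 0.0002), P2ry1 had a coefficient of -0.23 ± 0.05 (adjusted p = 0.0007) and P2ry2 of -0.41 ± 0.09 (adjusted p = 0.0007). These were 3 of 7 receptors, where 36.3% of all genes were past the threshold with a negative coefficient and 52.6% in either direction. The coefficients of P2rx4 (-0.04 ± 0.06), P2rx7 (0.03 ± 0.08), P2ry12 (-0.13 ± 0.07) and P2ry14 (0.11 ± 0.12) did not pass. With the covariate the level differences of P2rx3 and P2ry2 were -0.23 ± 0.14 and -0.44 ± 0.19 (limma adjusted p = 0.294 and 0.135), and 0 receptors passed, where 8.90% of genes did.

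**Figure D4:**
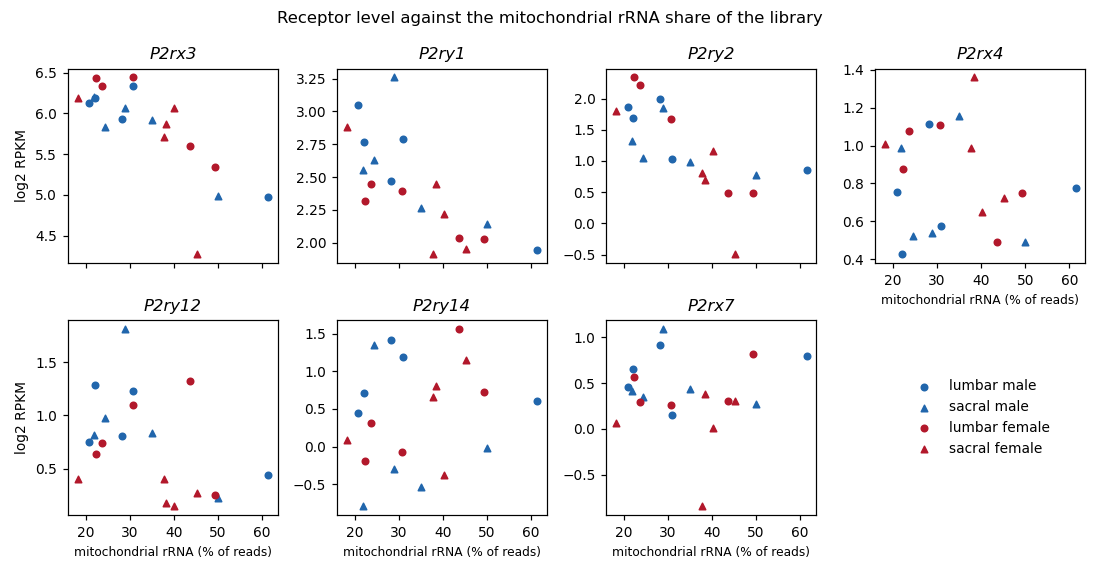
Log2 RPKM of the 7 receptors tested (vertical axes, each with its own range) against the share of reads from the 2 mitochondrial rRNA genes (horizontal axis, percent) in the 20 libraries, circles lumbar and triangles sacral, blue male and red female. P2rx3, P2ry1 and P2ry2 are lower in libraries with a larger share, with coefficients of -0.36, -0.23 and -0.41 per 10 percentage points, and the other 4 show no such trend past the threshold.

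Genes whose levels followed a receptor most closely were listed by Pearson's r over the 20 libraries, which come in pairs from 10 embryos and share the mitochondrial rRNA gradient. For P2rx3 they were Gm14703 (r = 0.973), Gap43 (0.971), a growth cone protein, and Rtn1 (0.968), a reticulon of neuronal endoplasmic reticulum, and over the 10 within-embryo level differences r was 0.859, 0.941 and 0.892. P2ry2 was closest to Prkar1b (0.940), a regulatory subunit of protein kinase A, and to CK137956 (0.938) and Maneal (0.937). P2ry1 was closest to Nrd1 (0.930), and the highest values were lower for P2ry12 (Prcp, 0.831), P2rx7 (Dtx3l, 0.775), P2ry14 (Gltp, 0.763) and P2rx4 (Gm16234, 0.724). Among the receptors themselves P2rx3 and P2ry2 were the most alike, with r = 0.809, and P2rx3 and P2ry1 had r = 0.610.

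The rest of ATP and adenosine signalling was examined in 35 further genes, of which 20 passed the filter. In the level comparison 1 of the 20 passed the threshold, where 6.73% of all genes did, and the median difference was -0.01. The gene was Gja1, the gap junction protein connexin 43, whose hemichannels can release ATP. Males had 4.27 ± 0.23 log2 RPKM (SD, n = 5) in lumbar and 5.13 ± 0.58 in sacral DRG, and females 4.44 ± 0.47 and 5.21 ± 0.54. Gja1 was upregulated in sacral DRG by 0.81 ± 0.17 (SE), higher in 8 of 10 embryos, with a limma adjusted p of 0.0082, which was 0.0505 in a fit with no block for the embryo. The fibroblast and meninges list, whose cells also carry connexin 43, had a positive difference in 10 of 10 genes with a median of 0.44. The cartilage list was positive in 3 of 3 genes tested, median 0.80. The satellite glia and Schwann cell list went the other way, with 12 of 13 genes negative and a median of -0.34. The part of these lists in the value of Gja1 was not tested.

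Of the 7 genes listed as other P2 or related receptors 0 passed the filter. P2rx1, the P2X gene outside the 10, had 0 to 54 reads per library, was blank in 3 libraries, and was not tested. Adenosine receptors were represented by Adora1 among the genes tested, ectonucleotidases, which degrade extracellular ATP to adenosine, by 7 of 9 genes, genes of ATP release by 7 of 9 and genes of adenosine uptake and metabolism by 5 of 6, with 0, 0, 1 and 0 past the threshold. Median differences of the last 3 lists were 0.13, -0.12 and -0.05.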

How the data were processed

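The deposited table held log2 RPKM values, which the authors made by aligning reads to mm9 with Subread, keeping uniquely mapped reads, counting them on Ensembl genes with featureCounts and applying TMM scaling and voom. All libraries had the same median of 0.930302, which TMM scaling does not by itself impose. A blank is a gene without reads. RNA had been amplified as cDNA before tagging, so read counts cover counting error only. Read numbers were recovered from the log2 RPKM values with GENCODE M1 exon lengths, and 98.27% of values came out within 0.05 of a whole number. Blanks were set to the value of 0.5 reads.

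Groups, sexes and embryos came from the labels. Genes with a group mean of at least 1 RPKM on the log2 scale were tested with limma 3.58.1 in R 4.3.3 on all 20 libraries, with a mean per group, embryo as a block through duplicateCorrelation and eBayes with trend, two-sided, at an adjusted p of 0.05. The fit was checked on simulated data. The labels give the embryo of each library, so libraries were paired by animal. Their litters are not given in the sources used here. The deviations of an embryo's libraries from their group means correlated between -0.166 and 0.676, above 0.1 in 6 of 10 embryos. Genes below the filter were compared within embryos (n = 10) by exact sign-flip permutation. All 10 receptors were named whatever their result, of the pathway lists the genes past the threshold and P2rx1, and of genes alike in level the 3 highest. Cell type genes were named after their values were seen. The receptors and all lists were chosen with earlier results of these data known. A log2 difference against few reads depends on the value set for a blank. Alternatives changed the block, filter, blank, pseudocount, scaling, weights, covariate, transformation and embryos.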

Additional observations from a re-analysis of the deposited data

Results flagged for a closer look

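Of the 40 groups of 5 libraries formed by 10 receptors and 4 groups, 2 held a library far from the other 4 by Dixon's test, where chance flags about 1 in 20. P2rx3 in sacral female DRG was 4.27 log2 RPKM in embryo F7, against 5.71 to 6.19 in the other 4 libraries. P2rx7 in sacral male DRG was 1.09 log2 RPKM in M7, against 0.27 to 0.43 in the other 4 libraries. The mitochondrial rRNA share was 45.2% in the first library and 28.8% in the second.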

How the results depend on the processing

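In the level comparison 0 receptors passed under the alternatives tried, except that 2, P2ry2 and P2ry12, passed with sample weights. Under that setting 20.6% of all genes passed. In the sex comparisons and the interaction 0 passed under each alternative that could be fitted. With embryo as a fixed term the sex comparisons could not be estimated. The number of all genes called in the level comparison was 978, and it was 154 with no replicate block, 507 with no filter, 2998 with sample weights and 401 to 1594 with 1 embryo left out. The block changed no call among the receptors. For the other genes of purinergic signalling the count of 1 became 0 with no replicate block, where Gja1 had a limma adjusted p of 0.0505, 2 with the study's filter on depth-scaled reads, 5 with sample weights and 1 to 3 with 1 embryo left out. The genes added were Panx3 under that filter, Panx2, Panx3, Nt5e and Acpp with weights, and Panx3 and Nt5e without F8, all named after their values were seen. The difference of P2ry1 was -0.10 with sample weights and -0.061 to 0.095 with 1 embryo left out, and that of P2rx4 was -0.023 to 0.122, so neither has a settled sign. The difference of P2rx2 was 0.43 to 0.87 with 1 embryo left out, and the causes of these shifts were not tested beyond the settings themselves. P2rx2, P2rx5 and P2rx6 had 9 to 83, 0 to 47 and 7 to 107 reads per library.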
